A study of Mus musculus with 6 samples.

Results

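Interferon response genes were followed in activated primary mouse CD4+ T cells that carried control shRNA, control shRNA with harmine, or *Dyrk1a* shRNA. The 44 genes were taken by symbol from a list of interferon-induced antiviral genes, GTPases and sensors, out of 23420 genes in the deposited table, and all 44 were in the table. By role, 5 encode transcription factors and transcriptional regulators, 7 sensors of nucleic acid, 16 antiviral effectors and other induced proteins, 11 interferon-induced GTPases, 2 peptide transporter subunits, and 3 a poly-ADP-ribose polymerase (PARP) or its ubiquitin ligase partner. 37 of the 44 had enough counts to be tested. The 7 that were too low were *Isg15*, *Usp18*, *Ifit1*, *Ifit3*, *Mx1*, *Rtp4* and *Ifi44*.

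All cells were splenic CD4+CD62L+ T cells of 12-week-old Balb/c mice, stimulated on plates with anti-CD3/28. Lentivirus with shRNA was added after 24 h, medium with IL-2 was given 24 h later, and polyadenylated RNA was taken 48 h after that. The 3 groups of 2 libraries were control shRNA without harmine (here control), the same control shRNA with 3.7 µM harmine (harmine), and *Dyrk1a* shRNA without harmine. Harmine is a plant alkaloid that inhibits DYRK kinases, and *Dyrk1a* encodes the kinase DYRK1A; the comparisons ask what each treatment does to transcript levels and how the treatments differ from each other. All cells, the controls included, had been exposed to lentivirus, and no library without virus was analysed here. Which of several shRNA sequences each library received, whether transduced cells were selected, and whether replicates came from separate mice or cultures are not given in the sources used here, so that p-values measure the spread between these libraries, which may be technical.

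The libraries held 1096345 to 3747648 counts, fewest in the controls (1743428 and 1096345). Levels are given in CPM, counts scaled to the same TMM-adjusted sum over the tested genes in every library, for control replicates 1 and 2, harmine replicates 1 and 2 and *Dyrk1a* shRNA replicates 1 and 2, in that order. *Dyrk1a* itself stood at 58.4 and 82.7, 74.8 and 77.6, and 60.2 and 61.9 CPM. The groups overlapped, with a log2 fold change of -0.19 (standard error 0.21, edgeR adjusted p = 0.835) with *Dyrk1a* shRNA, so a lower *Dyrk1a* RNA level was not detected and the libraries labelled *Dyrk1a* shRNA are named by that label throughout. Summed over 9 T cell markers, levels were 2723 to 2983 CPM, and *Cd4* and *Cd3e* were at 296 to 382 and 203 to 286 CPM. Markers of other cells were low. Of 9 B cell markers the sum was 94.8 and 77.7, 64.4 and 60.7, and 81.6 and 82.2 CPM, so the harmine libraries were lowest. Of 12 myeloid and dendritic markers it was 50.8 and 27.9, 35.2 and 22.7, and 34.1 and 20.9 CPM, with *Siglech*, which marks plasmacytoid dendritic cells, at 0 counts in every library. Of 9 CD8 T and NK cell markers it was 20.3 to 33.3 CPM, with *Klra1* and *Klra8* at 0. The part of these cells in any result was not tested.

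Interferons are secreted proteins that warn cells of infection. Type I interferons bind the receptor IFNAR1/IFNAR2 and act through the kinases JAK1 and TYK2 on a complex that holds STAT2 and IRF9 and binds the interferon-stimulated response element (ISRE). Interferon gamma, the cytokine of Th1 and NK cells, binds IFNGR1/IFNGR2 and acts through JAK1 and JAK2 on genes with gamma-activated sites (GAS), and the induced factor IRF1 then acts on ISRE-like elements. The genes switched on block viral replication, attack the vacuoles of intracellular pathogens and raise antigen presentation, and T cells keep part of the programme on without infection.

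The DNA elements through which interferons act are shown before the levels. Letters of an ISRE stand before genes that were abundant here and before genes that were nearly silent. RefSeq promoter windows on GRCm38.p6, 250 bases before to 50 bases after the start of a gene, were present for 31 of the 44 genes. A gene with several windows was counted once, as a match if any of them matched. The letters GAAA, any 2 bases and GAAA again, read on either strand as an ISRE, occurred in 16 of the 31 (51.6%). They occurred in 3.99% of all 27025 genes with a window and 3.7% of the 7979 tested genes with a window. The letters TTCNNNGAA, which read the same on both strands, were taken as a GAS. They occurred in 12 of the 31 (38.7%), against 9.55% of all genes with a window and 8.42% of the tested genes with a window. In *Bst2* a GAS and an ISRE match overlap, and in *Igtp* and *Irgm2* they lie side by side. A match is a string of letters and not a measured binding site. Of the 16 genes with an ISRE match, the 4 with the highest mean CPM are *Gbp2*, *Igtp*, *Gbp5* and *Gbp3*, and their matches are shown in capitals on the strand of the gene:
Gbp2: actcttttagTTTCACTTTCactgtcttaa
Igtp: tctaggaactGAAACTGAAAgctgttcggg
Gbp5: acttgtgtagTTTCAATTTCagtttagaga
Gbp3: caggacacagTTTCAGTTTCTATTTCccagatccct
These runs lie at chr3:142620594-142620623, chr11:58199512-58199541, chr3:142496759-142496788 and chr3:142559989-142560024. The capitals begin 59, 34, 165 and 45 bases upstream of the RefSeq start of *Gbp2*, *Igtp*, *Gbp5* and *Gbp3*, all on the plus strand.

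The same letters stand before members that were close to absent from these cells. Chosen after their levels were seen, *Isg15*, *Ifit1* and *Ifit3* are shown as the too-low genes with an ISRE match, and *Irgm2* as the near copy of *Igtp*:
Isg15: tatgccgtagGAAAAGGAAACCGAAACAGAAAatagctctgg
Ifit1: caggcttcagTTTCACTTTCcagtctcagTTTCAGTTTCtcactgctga
Ifit3: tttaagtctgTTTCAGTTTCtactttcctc
Irgm2: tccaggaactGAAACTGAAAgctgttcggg
They lie at chr4:156200865-156200906 (minus strand), chr19:34640775-34640823, chr19:34583397-34583426 and chr11:58214903-58214932. *Isg15* holds 3 overlapping matches, *Ifit1* and *Ifit3* hold 2 each, of which the one nearer the start is shown for *Ifit3*, and the run of *Irgm2* has 29 of its 30 bases in common with that of *Igtp*. Of the 4 too-low genes with a window, 3 had an ISRE match and 0 had a GAS match. Of the 27 tested genes with a window, 13 had an ISRE match and 12 a GAS match. The too-low genes *Usp18*, *Mx1* and *Rtp4* had no window, and the GAS letters were chosen after the data were seen. With only 4 too-low genes the shares cannot be compared. The GAS match of *Irf1*, also chosen after its level was seen, begins 90 bases upstream of the start at chr11:53769914-53769942:
Irf1: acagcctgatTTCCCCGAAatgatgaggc

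The list as a whole took 0.281% and 0.395% of all counts in control, 0.294% and 0.343% with harmine, and 0.304% and 0.323% with *Dyrk1a* shRNA. The summed level was 3075 and 3660, 3020 and 3392, and 3120 and 3120 CPM, so the sums of the 3 groups overlapped. *Samhd1* alone made up 712 to 965 CPM of these sums. Within the list the levels of single genes spanned more than the treatments did. Per kilobase of exon, mean levels over the 6 libraries ran from 503 CPM per kb for *Ifi27l2a*, 137 for *Gbp2*, 105 for *Igtp* and 90.9 for *Samhd1* down to 0.0757 for *Ifit3*, 0.0463 for *Ifi44* and 0 for *Rtp4*. *Ifi27l2a* has only 463 bases of exon, and its value per kilobase is sensitive to that length.

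**Figure D1:**
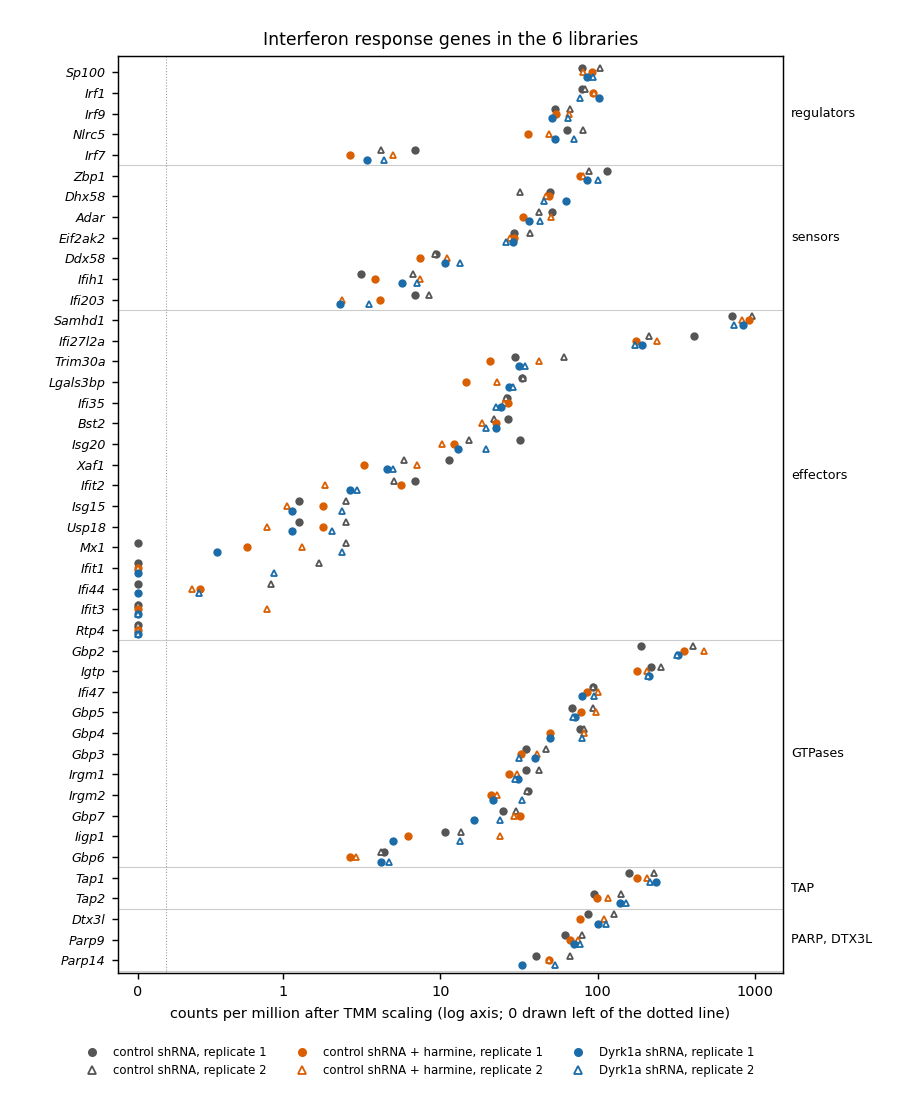
Level of each of the 44 interferon response genes (rows, grouped by role) in CPM on a log axis, with 1 point per library, colours for the groups and filled circles or open triangles for replicates 1 and 2; values of 0 are drawn left of the dotted line. Many rows hold the points of the 3 groups intermixed, while in others the libraries of at least 1 pair of groups do not overlap. *Samhd1* lies at 712 to 965 CPM, and *Rtp4* is at 0 in all 6 libraries.

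The 7 genes that were too low to test include textbook markers of a type I interferon response. *Isg15*, a ubiquitin-like modifier, had 2 and 3 counts in control, 6 and 4 with harmine, and 3 and 8 with *Dyrk1a* shRNA, and *Usp18*, the protease that removes it, had 2 and 3, 6 and 3, and 3 and 7. *Mx1*, a dynamin-like antiviral GTPase, had 0 and 3, 2 and 5, and 1 and 8 counts. *Ifit1* and *Ifit3*, which belong to a family that binds viral RNA, had 5 and 3 counts in all libraries together, *Ifi44* had 4, and *Rtp4*, a Golgi chaperone-like protein, had 0. A count of 0 in a library allows up to 3 counts, or 0.792 to 2.53 CPM in a single library and 0.188 CPM over all 6, for counting error only. All 7 genes are from the effector group, so that 9 of its 16 members were tested while every member of the other roles was. At these depths a difference between groups was not detectable for them.

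With 37 genes tested, 0 passed an adjusted p of 0.05 in any of the 3 comparisons in edgeR, and 0 did with DESeq2. Over all genes tested, 0.00943% passed with harmine against control, 0.0189% with *Dyrk1a* shRNA against control and 0.00943% with *Dyrk1a* shRNA against harmine, so few genes of any kind were called. The smallest adjusted p of a member was 0.784, 0.612 and 0.83. The 95% intervals reached a median of 0.52, 0.53 and 0.50 to either side on the log2 scale. For 23, 25 and 24 of the 37 genes the whole interval lay within a 2-fold change, and for the others a 2-fold change in at least 1 direction was inside the interval.

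With harmine, 26 of the 37 genes were below control and 11 above, and the median log2 fold change was -0.16, against -0.02 over all genes tested. At an unadjusted p under 0.05, 6 genes were lower and 0 higher, against 3.07% and 2.22% of all genes. The libraries of the groups did not overlap for 9 genes that were lower and 1 that was higher, against 15.9% and 16.4% of all genes. With *Dyrk1a* shRNA, 27 were below and 10 above, with a median of -0.19 against -0.01 over all genes. There 2 genes were lower and 0 higher at the unadjusted threshold, against 4.59% and 3.1% of all genes, and 11 did not overlap on the lower and 1 on the higher side, against 16.9% and 18.5%. Both comparisons share the control libraries, so their common direction is no independent evidence. Control replicate 2, the smallest library, was the highest of the 6 for 15 of the 37 genes, and harmine replicate 1 the lowest for 14. How often each library was highest or lowest over all genes tested was not counted. Without control replicate 2 the medians were -0.012 with harmine and -0.056 with *Dyrk1a* shRNA, with 20 of 37 below control in each. With harmine the median was also -0.036 without harmine replicate 1, -0.249 without control replicate 1 and -0.329 without harmine replicate 2, and with *Dyrk1a* shRNA it was -0.119 without *Dyrk1a* shRNA replicate 1. In RNA of whole cultures, fewer cells that express a gene and less RNA of it per cell cannot be told apart.

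**Figure D2:**
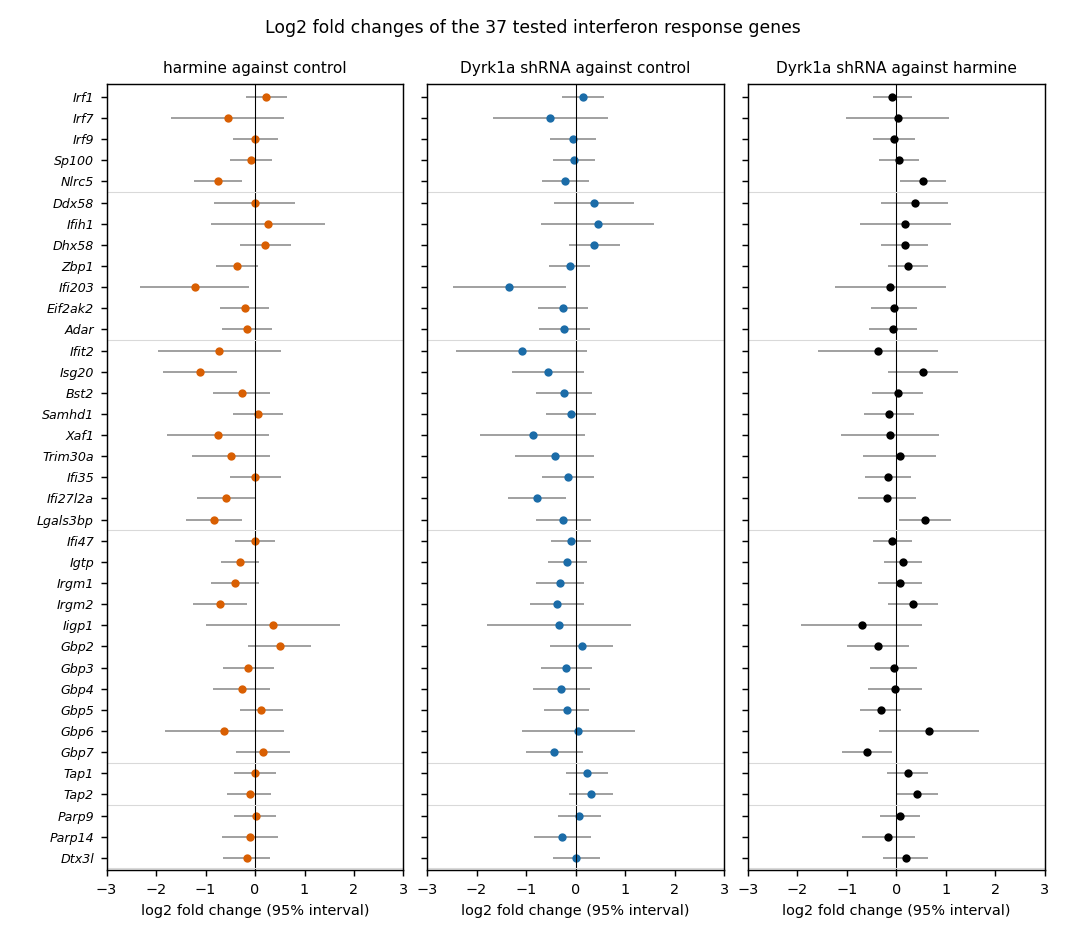
Log2 fold change (points) and 95% interval (lines) of the 37 tested interferon response genes, grouped by role from transcription factors at the top to PARP genes at the bottom, in the 3 comparisons. Points spread around 0 from -1.22 to 0.50 with harmine and from -1.34 to 0.45 with *Dyrk1a* shRNA, and 0 of the 37 pass an adjusted p of 0.05 in any panel.

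Among the transcription factors and regulators, 1 of 5 was lower with harmine at an unadjusted p under 0.05, against 3.07% of all genes. The same gene was higher with *Dyrk1a* shRNA than with harmine at that threshold, against 2.91% of all genes. With *Dyrk1a* shRNA against control 0 of the 5 passed it, where 4.59% of all genes were lower and 3.1% higher. NLRC5 is the transactivator of MHC class I genes. *Nlrc5* stood at 64.0 and 81.0 CPM in control, 36.4 and 48.8 with harmine and 53.3 and 70.7 with *Dyrk1a* shRNA. The harmine libraries lay below all 4 others, while those with *Dyrk1a* shRNA overlapped the controls. The log2 fold change with harmine was -0.75 (standard error 0.23, unadjusted p = 0.00473, edgeR adjusted p = 0.784), and between *Dyrk1a* shRNA and harmine it was 0.54 (standard error 0.22, edgeR adjusted p = 0.83). *Irf1*, a factor induced most strongly by interferon gamma, stood at 79.1 and 82.7, 94.2 and 95.1, and 102 and 77.2 CPM. Its replicates with harmine were close to each other and above control (log2 fold change 0.23, standard error 0.20, edgeR adjusted p = 0.938), and its *Dyrk1a* shRNA replicates were the highest and the lowest of the 6. *Sp100*, a component of PML nuclear bodies, was at 79.7 and 104, 92.7 and 80.3, and 85.1 and 93.7 CPM, with the groups intermixed. *Irf9*, the DNA-binding partner of STAT2, was at 51.0 to 66.7 CPM, and in each group replicate 2 was higher than replicate 1. *Irf7*, the amplifier of type I interferon production, was low at 2.68 to 6.90 CPM, with 5 to 19 counts a library.

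Of the 7 sensors, 5 were below control with harmine and 4 with *Dyrk1a* shRNA. IFI203 belongs to a family of DNA-binding proteins that includes AIM2. *Ifi203* was at 6.90 and 8.44 CPM in control, 4.17 and 2.38 with harmine and 2.30 and 3.54 with *Dyrk1a* shRNA, from 6 to 14 counts a library. Both treated groups lay below the controls, with log2 fold changes of -1.22 (standard error 0.52, edgeR adjusted p = 0.919) and -1.34 (standard error 0.54, edgeR adjusted p = 0.612). Of its 50-base stretches 10.9% also occur in other genes, *Mndal* among them, which overlaps it, so its counts are uncertain. ZBP1 senses left-handed nucleic acid and can trigger necroptosis. *Zbp1* was at 115 and 87.8, 77.2 and 80.5, and 85.4 and 101 CPM, the harmine libraries lowest (log2 fold change -0.37, standard error 0.20, edgeR adjusted p = 0.928).

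The 3 RIG-I-like receptors, which detect viral RNA in the cytoplasm, differed more from each other than between the groups. *Dhx58*, which encodes LGP2, stood at 50.2 and 32.1, 49.2 and 47.3, and 63.2 and 46.0 CPM, with the lowest value in control replicate 2. *Ddx58* (RIG-I) was at 7.45 to 13.3 CPM and *Ifih1* (MDA5) at 3.14 to 7.39 CPM. Per kilobase of exon, mean levels were 14.7 CPM per kb for *Dhx58*, 1.45 for *Ddx58* and 0.694 for *Ifih1*. With *Dyrk1a* shRNA all 3 were above control, at 0.38, 0.37 and 0.45 on the log2 scale, with intervals that include 0. *Eif2ak2*, which encodes the RNA-activated kinase PKR, was at 26.2 to 37.1 CPM. *Adar*, the RNA-editing enzyme that keeps cellular RNA from being sensed, was at 33.4 to 51.5 CPM. *Adar* shares 20.1% of its 50-base stretches with *Chrnb2*, which overlaps it.

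The effectors had the lowest median of the 6 roles in both comparisons with control, and 0 passed after adjustment. Of the 9 tested, 7 were below control with harmine (median log2 fold change -0.59) and 9 with *Dyrk1a* shRNA (median -0.42). The controls differed within this role too. Only 3 of the 9 were higher in control replicate 2 than in replicate 1, with a median difference of -0.29 on the log2 scale. *Ifi27l2a*, which encodes a small hydrophobic membrane protein, had 409 and 211 CPM in control, 176 and 238 with harmine and 191 and 172 with *Dyrk1a* shRNA. Control replicate 1 stood far above the 5 others, which lay between 172 and 238. The log2 fold changes were -0.59 with harmine (standard error 0.27, edgeR adjusted p = 0.928) and -0.78 with *Dyrk1a* shRNA (standard error 0.27, edgeR adjusted p = 0.612). *Isg20*, a 3′ to 5′ exonuclease, had 32.0 and 15.2 CPM in control, 12.2 and 10.3 with harmine and 13 and 19.5 with *Dyrk1a* shRNA, with the same control replicate highest. Its log2 fold change was -1.11 with harmine (standard error 0.35, edgeR adjusted p = 0.837). Without control replicate 1 it was -0.44 for *Isg20*, and those of *Ifi27l2a* were -0.03 with harmine and -0.23 with *Dyrk1a* shRNA. Control replicate 1 also had the highest sum of myeloid markers (50.8 CPM against 20.9 to 35.2), whose part in these values was not tested.

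*Lgals3bp*, which encodes a secreted galectin-binding glycoprotein, had 33.3 and 33.8 CPM in control, 14.6 and 23 with harmine and 27.2 and 29.2 with *Dyrk1a* shRNA. Here the controls were alike and both harmine libraries lower, with those of *Dyrk1a* shRNA between them. Its log2 fold change was -0.82 with harmine (standard error 0.27, edgeR adjusted p = 0.864), -0.25 with *Dyrk1a* shRNA, and 0.58 between the treatments (standard error 0.25, edgeR adjusted p = 0.83). *Samhd1*, the dNTP hydrolase that restricts retroviruses, had 712 and 965, 911 and 829, and 838 and 733 CPM. The groups of *Samhd1* were intermixed, and the interval of its log2 fold change ran from -0.45 to 0.56 with harmine and from -0.60 to 0.41 with *Dyrk1a* shRNA.

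The remaining effectors differed less, or had wide intervals. *Trim30a*, an E3 ligase that dampens signalling, went from 30.1 to 60.8 CPM between the controls and from 20.6 to 42.2 CPM between the harmine libraries, a wider spread than its log2 fold changes of -0.49 and -0.42. *Bst2*, which encodes the virion-holding protein tetherin, was at 18.5 to 27 CPM. *Ifi35* was the steadiest gene of the list, at 22.7 to 27.1 CPM, where the highest library was 1.19 times the lowest. *Xaf1*, a pro-apoptotic factor, had 11.3 and 5.91, 3.28 and 7.13, and 4.60 and 5.01 CPM, and *Ifit2*, the only tested *Ifit* gene of the list, had 6.90 and 5.06, 5.66 and 1.85, and 2.68 and 2.95 CPM. For *Xaf1* and *Ifit2* both *Dyrk1a* shRNA libraries lay below both controls, at log2 fold changes of -0.87 (standard error 0.50) and -1.09 (standard error 0.62) with intervals that include 0.

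The interferon-induced GTPases fall into the guanylate-binding proteins (GBPs) and the immunity-related GTPases (IRGs), which act together on membranes around intracellular pathogens. On GRCm38 in GENCODE M21, *Gbp2*, *Gbp3*, *Gbp5* and *Gbp7* lie in 1 cluster at chr3:142493978-142638008, *Gbp4* and *Gbp6* at chr5:105115767-105293698, and *Ifi47*, *Irgm1*, *Igtp* and *Irgm2* on chromosome 11. Of 11 tested, 7 were below control with harmine and 9 with *Dyrk1a* shRNA, with medians of -0.14 and -0.19. *Gbp2* stood at 188 and 403 CPM in control, 353 and 476 with harmine and 323 and 318 with *Dyrk1a* shRNA. The control replicates differed by more than any 2 treated libraries did, and control replicate 1 was the lowest of the 6. The log2 fold change was 0.50 with harmine (standard error 0.29, edgeR adjusted p = 0.928) and 0.12 with *Dyrk1a* shRNA (standard error 0.29, edgeR adjusted p = 0.939). Without control replicate 2, which leaves the low replicate as the lone control, it was 1.15 (edgeR adjusted p = 0.00434) and 0.78 (edgeR adjusted p = 0.0338), in a fit that called 2.65% and 3.99% of all genes. Without control replicate 1 it was 0.03 and -0.34, so the direction with *Dyrk1a* shRNA depends on which control library is kept.

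*Igtp* (Irgm3) had 220 and 254 CPM in control, 178 and 205 with harmine and 212 and 210 with *Dyrk1a* shRNA. All 4 treated libraries were below the controls, by -0.31 and -0.17 on the log2 scale with standard errors of 0.18, and neither was called. *Irgm2*, whose promoter element is printed beside that of *Igtp*, had 36.4 and 35.5 CPM in control, 20.9 and 23 with harmine and 21.8 and 33.0 with *Dyrk1a* shRNA. Its treated libraries were also all below the controls, with log2 fold changes of -0.71 (standard error 0.26, edgeR adjusted p = 0.903) and -0.38 (standard error 0.26, edgeR adjusted p = 0.74). The annotation has *Igtp* and *Irgm2* overlapping on the same strand, and 12.3% of the 50-base stretches of *Igtp* occur elsewhere, mainly in *Irgm2*. *Irgm1*, a regulator of the other IRGs, was likewise below control in all 4 treated libraries, from 35.2 and 42.2 CPM in control to 27.4 and 30.9 with harmine and 31.4 and 30.1 with *Dyrk1a* shRNA (log2 fold changes -0.40 and -0.32, both with a standard error of 0.23). *Ifi47*, a further IRG, was at 80.1 to 100 CPM with the groups intermixed.

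*Iigp1* (Irga6) was the most variable gene of the list, with 10.7 and 13.5, 6.26 and 24.0, and 4.98 and 13.3 CPM. Its highest library was 4.82 times its lowest, and replicate 2 exceeded replicate 1 by 1.86 with harmine and 1.33 with *Dyrk1a* shRNA on the log2 scale. Its intervals, -1.0 to 1.72 and -1.80 to 1.12, exclude no change of up to 2-fold in either direction. *Gbp7* had 25.1 and 30.4 CPM in control, 32.2 and 29.3 with harmine and 16.5 and 23.9 with *Dyrk1a* shRNA. Both *Dyrk1a* shRNA libraries were the lowest of the 6, at -0.59 against harmine (standard error 0.24, edgeR adjusted p = 0.83) and -0.43 against control (standard error 0.27, edgeR adjusted p = 0.725). *Gbp4* (49.8 to 81.9 CPM), *Gbp5* (68.4 to 97.2 CPM) and *Gbp3* (31.5 to 47.3 CPM) overlapped between control and both treatments. *Gbp6* was low at 2.68 to 4.72 CPM, with both harmine libraries the lowest (log2 fold change -0.62 with a standard error of 0.57 against control, and 0.67 with a standard error of 0.48 between the treatments), and since 59.7% of its 50-base stretches occur in other genes, its counts are uncertain. *Gbp4* and *Gbp7* share 12.8% each.

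TAP1 and TAP2 form the transporter that carries peptides into the endoplasmic reticulum for MHC class I, and their genes lie close together at chr17:34187553-34216321 within the MHC. *Tap1* had 158 and 229 CPM in control, 177 and 207 with harmine and 234 and 216 with *Dyrk1a* shRNA. *Tap2* had 95.4 and 141, 99.9 and 117, and 138 and 152 CPM. In both genes the *Dyrk1a* shRNA libraries lay above both harmine libraries, by 0.23 (standard error 0.20) and 0.42 (standard error 0.20) on the log2 scale (edgeR adjusted p = 0.913 and 0.859), and both overlapped the controls. PARP9 and DTX3L form a complex of a PARP and a ubiquitin ligase that enhances interferon signalling, and their genes overlap on opposite strands at chr16:35926511-35972605 with starts 681 bases apart. *Dtx3l* had 86.6 and 127, 77.5 and 110, and 100 and 113 CPM, and *Parp9* had 62.1 and 80.2, 66.8 and 75, and 70.9 and 77.8 CPM. In each group replicate 2 was above replicate 1 for both. The sources used here do not say whether strand was used in counting, so reads of this pair may not be separable. *Parp14*, a further PARP, had 33.0 to 66.7 CPM with the groups intermixed.

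Between the treatments, 19 of the 37 genes were higher and 18 lower with *Dyrk1a* shRNA than with harmine, with a median of 0.03 against -0.00 over all genes. At an unadjusted p under 0.05, *Nlrc5* and *Lgals3bp* were higher and *Gbp7* was lower, against 2.91% and 2.82% of all genes. Libraries did not overlap for 8 genes on the higher and 4 on the lower side, against 20.2% and 20.8% of all genes. The 8 were *Nlrc5*, *Zbp1*, *Isg20*, *Lgals3bp*, *Igtp*, *Gbp6*, *Tap1* and *Tap2*, and the 4 were *Ifi35*, *Gbp2*, *Gbp5* and *Gbp7*. B cell markers were also lower with harmine (64.4 and 60.7 CPM against 81.6 and 82.2), and their part in these differences was not tested.

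Replicates of a group differed in a shared direction across the list. In control, 24 of the 37 genes were higher in replicate 2 than in replicate 1, with a median difference of 0.26 on the log2 scale, against 0.00 over all genes tested. With harmine it was 26 of 37 and 0.23 against 0.00, and with *Dyrk1a* shRNA 24 of 37 and 0.14 against -0.01. In control and with harmine these differences between replicates exceeded the medians of the list between groups in size. By role, 9 of 11 GTPases were higher in replicate 2 in control, 10 of 11 with harmine and 6 of 11 with *Dyrk1a* shRNA, and 3, 4 and 5 of 9 effectors were. Over all 6 libraries the ratio of the highest to the lowest CPM had a median of 1.64 in the list, beside 1.65 over all genes tested.

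**Figure D3:**
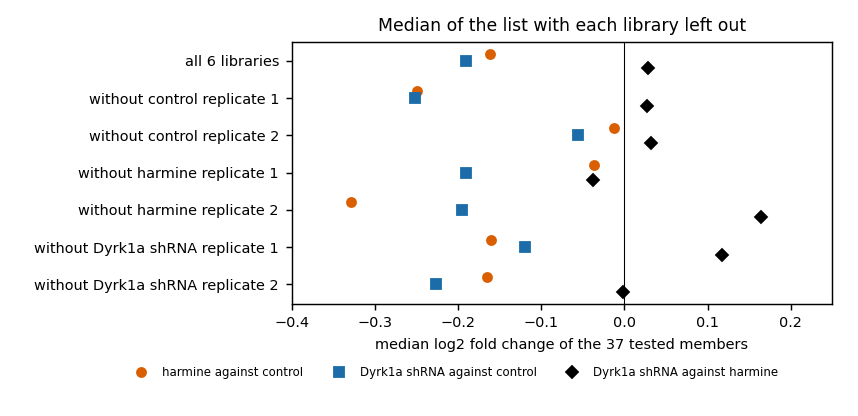
Median log2 fold change of the 37 tested interferon response genes (horizontal axis) in the fit of all 6 libraries and in fits that leave out 1 library each (rows), with symbols for the 3 comparisons. With harmine the median moves between -0.329 without harmine replicate 2 and -0.012 without control replicate 2.

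Upstream of the list, the ligands were near absent and the receptors and signalling proteins were present. Of 124 other pathway genes listed by role, 120 were in the table and 78 were tested. Of 21 interferon ligand genes, 1 was tested, *Ifnz*, at 0 and 1.69, 0 and 1.58, and 3.83 and 3.24 CPM, with 0 counts in 1 library each of control and harmine. *Ifnb1* had 0 counts in every library, and *Ifng* was at 0 and 0.844, 0 and 0, and 0.383 and 0 CPM. All 4 chains of the type I and gamma receptors were measured. *Ifnar1* was at 168 and 137, 151 and 151, and 148 and 162 CPM, and *Ifnar2* at 60.3 and 49.8, 50.4 and 38.8, and 47.5 and 47.5 CPM. *Ifngr1* was at 128 and 116, 120 and 94.5, and 150 and 101 CPM, and *Ifngr2* at 50.2 and 54.9, 58.7 and 46.7, and 48.3 and 55.1 CPM. These chains had log2 fold changes of -0.31 to 0.04 against control, and 0 were called.

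The kinases and STAT2 were also present in each group. *Jak1* was at 220 and 272, 228 and 211, and 219 and 250 CPM, and *Tyk2* at 49.6 and 47.3, 36.7 and 44.1, and 48.7 and 54.5 CPM. *Stat2* was at 81.6 and 96.2, 62.3 and 92.2, and 79.7 and 92.6 CPM.

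**Figure D4:**
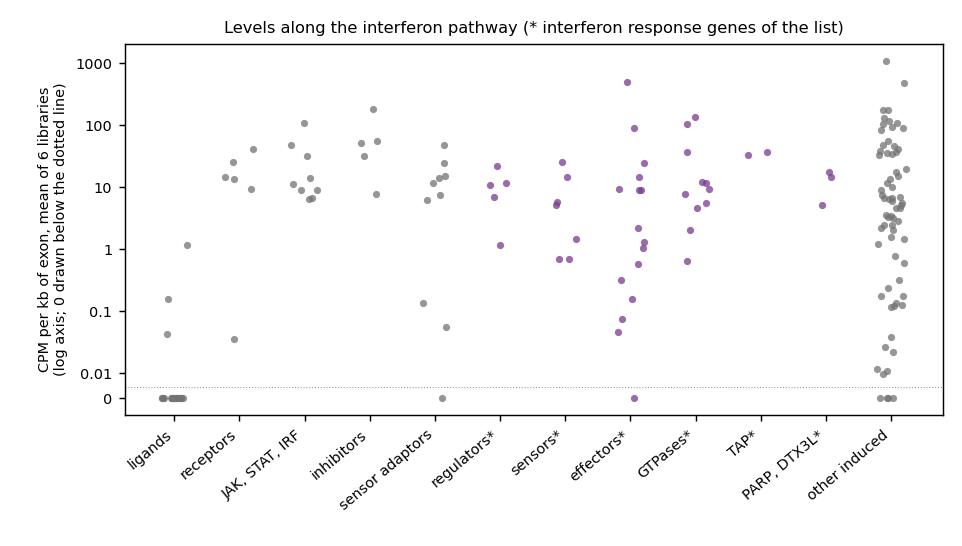
Mean level over the 6 libraries in CPM per kilobase of exon (vertical log axis, 0 drawn below the dotted line) of the interferon pathway genes in the table that have an exon length in the annotation (points), by role from ligands at the left to other induced genes at the right; purple points with starred labels are the 44 interferon response genes. Ligands lie mostly at 0 while *Ifngr1* is at 41.5 and *Gbp2* at 137 CPM per kb.

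Other interferon-induced genes outside the list lay below control more often than above. Of 72 listed, 50 were tested, and 42 were below and 8 above with harmine (median log2 fold change -0.29). With *Dyrk1a* shRNA 41 were below and 9 above (median -0.20), again against shared controls. Neither median was recomputed with a library left out, so how far each rests on a single control library was not tested. Over all genes tested, 5567 were below and 5040 above with harmine (median -0.02), and 5478 below and 5128 above with *Dyrk1a* shRNA (median -0.01). Of the 50 tested induced genes, 9 were lower and 0 higher with harmine at an unadjusted p under 0.05, against 3.07% and 2.22% of all genes. Libraries did not overlap for 23 of the 50 on the lower and 0 on the higher side, against 15.9% and 16.4%. With *Dyrk1a* shRNA 7 of the 50 were lower and 1 higher, against 4.59% and 3.1% of all genes. There 13 did not overlap on the lower and 2 on the higher side, against 16.9% and 18.5%. Over all 78 tested pathway genes, 9 were lower and 0 higher with harmine, and 7 and 2 with *Dyrk1a* shRNA. After adjustment in edgeR, 0 were called. *Ly6a*, which encodes the surface antigen Sca-1, had 333 and 283 CPM in control, 103 and 164 with harmine and 207 and 210 with *Dyrk1a* shRNA. All 4 treated libraries were below the controls and the harmine libraries lowest, with a log2 fold change of -1.21 with harmine (standard error 0.21, edgeR adjusted p = 0.195). The DESeq2 Wald test called it, and called 0.0283% of all genes. *Ifitm2*, whose product bars virus entry at membranes, had 109 and 78.5, 45 and 57.3, and 53.6 and 66.6 CPM, at -0.88 with harmine (standard error 0.22, edgeR adjusted p = 0.57) and -0.65 with *Dyrk1a* shRNA (standard error 0.22, edgeR adjusted p = 0.612).

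Of the further genes with small unadjusted p named by rule, all were lower than control. The 2 pathway genes above control at the unadjusted threshold, named after their values were seen, were *Ticam1*, the adaptor of TLR3, at 22.6 and 32.9, 34.6 and 32.5, and 45.2 and 41.6 CPM, and *Ogfr*, the opioid growth factor receptor, at 99.8 and 105, 99.9 and 118, and 148 and 143 CPM. With *Dyrk1a* shRNA their log2 fold changes were 0.67 (standard error 0.24) and 0.51 (standard error 0.19), both with an edgeR adjusted p of 0.612. *Ifitm1*, of the family of *Ifitm2*, had 61.5 and 42.2, 29.2 and 36.7, and 26.1 and 32.1 CPM. Its treated libraries were all below both controls. *Phf11a* had 13.2 and 11.0, 4.47 and 5.02, and 9.96 and 10.0 CPM. *B2m*, the light chain of MHC class I, had 1788 CPM in control replicate 1 and 896 in control replicate 2, against 820 and 778 with harmine and 677 to 780 with *Dyrk1a* shRNA. As with *Ifi27l2a*, the difference in *B2m* came mainly from control replicate 1. *Rsad2*, the gene of viperin and a standard type I response marker, had 0 counts in all 6 libraries, as *Rtp4* did within the list.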

How the data were processed

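RNAseq of 6 libraries (3 groups of 2) was analysed. The authors primed polyadenylated RNA with poly-dT, made Nextera libraries, aligned reads to mm10 with TopHat and deposited RSEM expected counts per gene without normalization. Tools listed in the submitters' notes are TopHat2 2.0.13, RSEM and DESeq. The RSEM version and annotation are not given in the sources used here. From these expected counts, values were rounded to whole counts. Genes were kept by filterByExpr (minimum count 10), libraries scaled by TMM, and 1 quasi-likelihood model (robust) with 3 group means was fitted to all 6 libraries in edgeR 4.0.16 under R 4.3.3, with two-sided tests, Benjamini-Hochberg adjustment over the 10607 genes tested, threshold 0.05. CPM values divide by the scaled sum over tested genes. Intervals are at 95%, and the limit that a count of 0 allows (3 counts) covers counting error only. Libraries held 1096345 to 3747648 counts, which limits genes under about 10 counts.

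The members and lists were chosen with earlier results of these data known. Every member is accounted for. Members with an unadjusted p under 0.05 in any comparison, and the 2 per role with the highest mean CPM, are given in every library. *Iigp1*, *Irgm1*, *Xaf1*, *Ifit2* and the too-low genes were added after their values were seen. Of other pathway genes, the rule names 9 (*Ifng*, receptors, kinases and STAT genes) and the 6 further genes of smallest unadjusted p against control, and some of these are not reported here. *Ifnz*, *Ifnb1*, *Ticam1*, *Ogfr* and *Rsad2* were added after their values were seen. Exon lengths and shared 50-base stretches come from GENCODE M21 on GRCm38, the assembly of mm10, in which all 44 members matched, and promoter windows from RefSeq on GRCm38.p6. The GAS letters were chosen after the data were seen. Replicates differed by more than sampling noise (chi-square per degree of freedom 10.5 in control, 4.03 with harmine and 3.69 with *Dyrk1a* shRNA). Each result was recomputed with scaling only by library size, with the size factors and the Wald test of DESeq2 1.42.0, with no filter or a minimum count of 50, with a replicate block, from the compared pair alone, after thinning to the smallest library, without each library in turn and, chosen after seeing the data, with length and GC trends removed.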

Additional observations from a re-analysis of the deposited data

How the results depend on the processing

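The count of members called stayed at 0 in all 3 comparisons under both other scalings, the DESeq2 Wald test, no filter, a minimum count of 50, the pair alone, thinning and the removal of length and GC trends. Leaving out 1 library in turn, it ranged from 0 to 3 with harmine and from 0 to 2 with *Dyrk1a* shRNA. All of these came without control replicate 2, the smallest library, where the remaining control is alone and is assumed to vary like the other groups: *Gbp2*, *Isg20* (log2 fold change -1.51, edgeR adjusted p = 0.0216) and *Ifi27l2a* (-0.98, edgeR adjusted p = 0.00702) with harmine, and *Gbp2* and *Ifi27l2a* (-1.17, edgeR adjusted p = 0.00112) with *Dyrk1a* shRNA. Without control replicate 1 *Gbp2*, *Isg20* and *Ifi27l2a* were at 0.03, -0.44 and -0.03 with harmine, and *Gbp2* and *Ifi27l2a* at -0.34 and -0.23 with *Dyrk1a* shRNA. Without control replicate 2, 2.65% and 3.99% of all genes were called. The median over members ranged from -0.329 to -0.012 with harmine, from -0.252 to -0.056 with *Dyrk1a* shRNA and from -0.038 to 0.164 between the treatments when a library was left out, where it fell below 0 without harmine replicate 1 (-0.038) and without *Dyrk1a* shRNA replicate 2 (-0.002). Under those of the 15 alternatives that tested them, 17, 16 and 14 of the 37 members kept their sign throughout. With harmine 0.0283% of all genes were called by the DESeq2 Wald test, 0.0221% after thinning and 0.128% without a filter. Of the other pathway genes with harmine, 1 was called by the DESeq2 Wald test and 1 after thinning (*Ly6a* in both). Without a filter 2 of these pathway genes were called (*Ifitm2* and *Ly6a*). Without 1 library their count ranged from 0 to 5 with harmine and from 0 to 5 with *Dyrk1a* shRNA, 5 in each case without control replicate 2, and 1 with harmine without harmine replicate 2. The cause was not tested. The labels do not say that replicate numbers mark shared animals or days, so the numbers were not taken as pairs. Over all tested genes, deviations of same-numbered libraries correlated at 0.12 (control and harmine), 0.0196 (control and *Dyrk1a* shRNA) and 0.24 (harmine and *Dyrk1a* shRNA). Of the 37 members, 24, 26 and 24 were higher in replicate 2 in control, harmine and *Dyrk1a* shRNA. Whether same-numbered libraries share a source was not tested. With the replicate block 0 members were called in each comparison, and the medians were -0.182, -0.191 and 0.031. Depth leaves 7 members untested, and 14, 12 and 13 of the 37 tested had intervals that reach a 2-fold change.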
